A study of Mus musculus with 10 samples.

Results

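The genes of the ribosomal proteins were described in mouse liver, those of the cytosolic ribosome beside those of the mitochondrial ribosome. Members were the protein-coding genes whose symbol is Rpl or Rps followed by a number, with Rplp0, Rplp1, Rplp2 and Rpsa, or Mrpl or Mrps followed by a number. Kinases of ribosomal protein S6 and pseudogenes were left out. The rule used names and no measured value. It took 164 of the 53392 genes in the table, 86 for the cytosolic ribosome (52 named for the large and 34 for the small subunit) and 78 for the mitochondrial ribosome (49 and 29).

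The series profiled frozen liver of C57BL/6 mice aged 24 weeks by RNA sequencing. It compared 5 wild-type livers (WT, replicates 1 to 5) with 5 livers of mice deficient in hepatic Fbp1 (Fbp1-deleted, replicates 6 to 10). Fbp1 is the gene of fructose bisphosphatase, which gluconeogenesis needs. The allele, the promoter or Cre line used for the deletion, and the sex, litter and batch of the mice, are not stated in the labels. Each replicate is described as a biological one, and p-values below measure the spread between these livers. In bulk liver RNA, fewer cells of a type and less RNA per cell cannot be told apart.

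A ribosome joins amino acids into protein in the order that an mRNA sets. The cytosolic ribosome pairs a small subunit, which reads the mRNA, with a large subunit, which forms the peptide bond, and hepatocytes use it to make the plasma proteins they secrete. Its proteins are among the most abundant transcripts of most cells, and many of their mRNAs start with a run of pyrimidines through which growth signals from mTORC1 control their translation. The mitochondrial ribosome is a separate machine of bacterial ancestry. Its proteins are encoded in the nucleus and imported, its rRNAs come from mitochondrial DNA, and it makes the few proteins of the respiratory chain that mitochondrial DNA encodes.

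The main pattern was small in size. Between Fbp1-deleted and WT liver, 2 cytosolic members fell (Rps21 and Rps2) and 6 mitochondrial members rose (Mrpl47, Mrps31, Mrps2, Mrpl16, Mrps30 and Mrpl3), of 83 and 78 tested, where 10% of all genes tested fell and 10.6% rose. No cytosolic member passed the test upwards and no mitochondrial member downwards. WT replicate 1 had the highest cytosolic sum, and without it the median of the cytosolic changes was -0.12 in place of -0.15 on the log2 scale. With a trend on transcript length removed from each library, an alternative added after the data were seen, that median was -0.015 and 0 cytosolic members were called. The count of cytosolic members that fell was 9 with DESeq2, 10 with upper quartile factors and 16 with library totals. Of all 15392 genes tested, 1817, 1878 and 1965 fell under these settings, in that order. Most other cytosolic members lay slightly below 0 without passing the test, while the mitochondrial members lay on both sides of 0. Of all genes tested, 49.1% lay below 0.

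Promoter sequence is shown first, as a feature of the members that the rule did not use. RefSeq promoters (GRCm38.p6, 250 bases before to 50 after the annotated start, read on the gene's strand) were matched for 135 of the 164 members, 66 cytosolic and 69 mitochondrial. The windows below run from 60 bases before the start to 20 bases from it. They belong to the called members Rps21, Rps2, Mrps31 and Mrpl3, and to Rpl38, the large-subunit member nearest to the threshold. Capitals mark CCGGAAG, the core that ETS family factors recognise, and CTTTCC, a pyrimidine-rich word. The positions are chr2:180257319-180257398 (plus strand) for Rps21, chr17:24720003-24720082 (plus) for Rps2, chr11:114668520-114668599 (plus) for Rpl38, chr8:22411280-22411359 (plus) for Mrps31 and chr9:105053208-105053287 (plus) for Mrpl3.
Rps21: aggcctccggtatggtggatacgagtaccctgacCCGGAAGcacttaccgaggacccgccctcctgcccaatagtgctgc
Rps2: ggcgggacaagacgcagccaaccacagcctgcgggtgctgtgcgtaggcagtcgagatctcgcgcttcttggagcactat
Rpl38: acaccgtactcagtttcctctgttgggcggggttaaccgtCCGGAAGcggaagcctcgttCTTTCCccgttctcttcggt
Mrps31: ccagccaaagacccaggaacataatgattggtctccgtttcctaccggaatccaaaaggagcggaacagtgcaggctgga
Mrpl3: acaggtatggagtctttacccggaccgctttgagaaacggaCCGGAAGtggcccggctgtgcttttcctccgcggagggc

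CCGGAAG, searched on both strands, was found in members of both ribosomes. It lay in 37.9% of the cytosolic and 36.2% of the mitochondrial promoters, beside 17.7% of 10382 promoters of protein-coding genes that were tested and 9.21% of all 27025 promoters. In the windows above it begins 26 bases before the start in Rps21, 20 before it in Rpl38 and 19 before it in Mrpl3. The windows of Rps2 and Mrps31 hold neither word in capitals. Outside its window, the searched Rps2 promoter has CCGGAAG 127 bases and CTTTCC 94 bases before the start. That of Rps21 has a further CCGGAAG 88 bases and CTTTCC 112 bases before it, and that of Rpl38 a further CTTTCC 201 bases before it. The Mrps31 promoter has neither word. Of the 6 called mitochondrial members, 1 (Mrpl3) has CCGGAAG in its searched promoter and 5 do not. A pair of other words was found more often on the mitochondrial side. The word of the respiratory gene activator Nrf1, GCGCA and GCGC set 1 base apart, lay in 18.8% of mitochondrial and 9.09% of cytosolic promoters (10.1% of those tested), and AAGATGGC, the word of Yy1, in 17.4% and 7.58% (4.57% of those tested).

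Pyrimidine-rich words were found more often on the cytosolic side. CTTTCC, searched on both strands, lay in 53.0% of cytosolic promoters, 30.4% of mitochondrial promoters and 26.6% of those tested. A run of a C and at least 4 more pyrimidines that began within 2 bases of the annotated start was present in 30.3% of cytosolic, 10.1% of mitochondrial and 9.77% of tested promoters. The windows of Rps21, Rpl38 and Mrpl3 have such a run, and those of Rps2 and Mrps31 do not. The words can overlap, and a match describes these letters only. Medians of the change with and without each word are given as descriptions. Cytosolic members with CCGGAAG had a median log2 change of -0.17 (24 tested) and those without it -0.12 (39 tested), and the mitochondrial medians were 0.04 (25) and 0.03 (44). Cytosolic members with and without the pyrimidine run both had a median of -0.14 (20 and 43 tested). Mitochondrial members with the Nrf1 word had -0.03 (13 tested) and those without it 0.03 (56), and with and without the Yy1 word -0.04 (12) and 0.04 (57). The largest gap was that of the mitochondrial members with the pyrimidine run, at 0.14 (7 tested), against 0.03 without it (62 tested). Cytosolic members had -0.20 with the Nrf1 word (6 tested) and -0.14 without it (57), and -0.07 with the Yy1 word (5) and -0.14 without it (58). None of the 6 called mitochondrial members has either of these words in its promoter.

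Levels are given as counts-per-million (CPM) after scaling of the libraries, and levels are compared between genes only per kilobase (kb) of transcript. In WT liver the median cytosolic member stood at 229 CPM per kb (quartiles 150 and 311) and the median mitochondrial member at 18.8 (quartiles 9.39 and 31.8), beside 3.52 over all genes tested. The highest cytosolic levels per kb in WT were those of Rplp1 (813), a protein of the acidic stalk that recruits elongation factors, Rps2 (682), which lines the mRNA entry of the small subunit, Rpl41 (670), the shortest ribosomal protein, and Rps18 (533) of the small subunit head. The highest mitochondrial levels per kb were those of Mrpl14 (106), Mrps21 (94.1), Mrpl12 (83.7), the stalk protein of the mitochondrial large subunit, and Mrpl52 (79.5), also of that subunit. Mrps34 (55.5) was the next of the small subunit after Mrps21. The most abundant mitochondrial member per kb thus stood below the lower quartile of the cytosolic members.

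Summed over members, cytosolic ribosomal protein transcripts in the 5 WT libraries (replicates 1 to 5) stood at 17927, 15948, 17060.1, 16550.5 and 16977 CPM. In the 5 Fbp1-deleted libraries (replicates 6 to 10) they stood at 14486, 16840.0, 15379, 15098 and 14610.2 CPM. The groups overlapped through 1 library, Fbp1-deleted replicate 7, which lay within the WT range, while the other 4 lay below every WT library. The means were 16892 ± 727 CPM (SD, n = 5) in WT and 15283 ± 943 CPM (SD, n = 5) in Fbp1-deleted liver, a difference of -9.53%. As a share of all counts the sum was 1.74% ± 0.122 in WT and 1.48% ± 0.0958 in Fbp1-deleted liver (SD, n = 5 each).

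The mitochondrial ribosome summed to 2571, 2432, 2291, 2389 and 2385 CPM in WT and to 2392, 2699, 2389, 2373 and 2266 CPM in Fbp1-deleted liver, each in replicate order. These groups overlapped throughout, with means of 2414 ± 102 and 2424 ± 162 CPM (SD, n = 5 each), a difference of 0.42%. Fbp1-deleted replicate 7 was the highest of the 10 libraries here. The ratio of the cytosolic to the mitochondrial sum, which does not depend on library scaling, was between 6.56 and 7.45 in WT and between 6.06 and 6.45 in Fbp1-deleted liver, so the groups did not overlap. No test was made on these sums, since the members were chosen together.

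**Figure D1:**
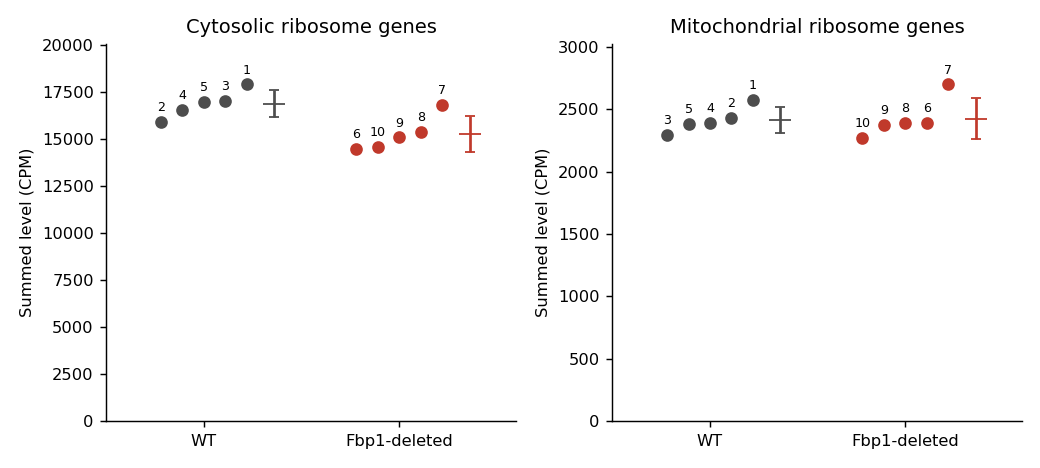
Summed level (CPM) of the cytosolic (left) and mitochondrial (right) ribosomal protein genes in each library, with the replicate number beside each point and the mean ± SD of each group as a bar. On the left, 4 of 5 Fbp1-deleted libraries lie below all WT libraries and replicate 7 lies within them; on the right the groups overlap.

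The cytosolic subunits were also summed apart. The small-subunit sum had a difference of -11.3% and the large-subunit sum of -8.23%. The ratio of large to small was between 1.33 and 1.35 in the 5 WT libraries and between 1.37 and 1.40 in the 5 Fbp1-deleted libraries, with no overlap. Rps2 alone made up 746 CPM of a mean small-subunit sum of 7229 CPM in WT. In Fbp1-deleted liver it made up 561 of 6414 CPM. The part of this 1 gene in the ratio was not tested, so the ratio does not show a shift of the whole subunit. The mitochondrial subunit sums had differences of -0.57% (large) and 2.51% (small).

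Of the 15392 genes tested with edgeR's quasi-likelihood test (adjusted p under 0.05), 1636 were higher (10.6%) and 1542 lower (10%) after the deletion. The median log2 change was 0.01. The filter on low counts kept 161 of the 164 members. Of 83 cytosolic members tested, 0 were called higher and 2 (Rps21 and Rps2) lower, fewer than the 10.6% and 10% of all genes. At an unadjusted p under 0.05, 0 cytosolic members were higher and 20 lower, beside 2744 higher and 2580 lower of all 15392 genes. DESeq2 called 0 higher and 9 lower (1967 and 1817 over all genes), and limma-voom 0 and 3 (1554 and 1560 over all genes).

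Of 78 mitochondrial members tested, 6 were called higher and 0 lower. The share called higher was near that of all genes, and the lower one was below it. At an unadjusted p under 0.05, 11 were higher and 7 lower, beside 2744 higher and 2580 lower of all 15392 genes. DESeq2 called 7 higher and 1 lower (1967 and 1817 over all genes), and limma-voom 5 and 0 (1554 and 1560 over all genes). Changes were small throughout. A fitted change of at least 1.5-fold was reached by 1 of 161 members (Mrpl47), beside 21.5% of all genes tested.

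The cytosolic changes were shifted to one side. Of 83 members, 71 (85.5%) had a fitted log2 change below 0, beside 49.1% of all genes tested. Their median was -0.15, with a range from -0.41 (Rps2) to 0.21 (Rpl5, named after its value was seen), and a median SE of 0.10 for a single member. Under 1000 bases of transcript, the 53 cytosolic members had a median of -0.15 and all tested protein-coding genes -0.13. In the small subunit 32 of 34 lay below 0 (median -0.15), and in the large subunit 39 of 49 (median -0.14). In the mitochondrial ribosome 45 of 78 lay above 0 and 33 below, with a median of 0.03 in each subunit and a range from -0.53 to 0.62. The difference between the medians, mitochondrial minus cytosolic, was 0.17. Members are not replicates of the comparison, and no test was put on these medians.

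The direction of the mitochondrial median depended on how libraries were scaled, and that of the cytosolic median did not. With upper quartile factors or library totals the median of all genes moved to -0.06 and -0.08, the mitochondrial median to -0.05 and -0.06, and the cytosolic median to -0.22 and -0.23. Relative to all genes, the cytosolic median stood at -0.15 to -0.16 under these scalings. Without Fbp1-deleted replicate 7 the mitochondrial median was -0.03. The difference between the ribosomes was 0.17 under each of these scalings and between 0.14 and 0.19 when 1 library was left out.

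**Figure D2:**
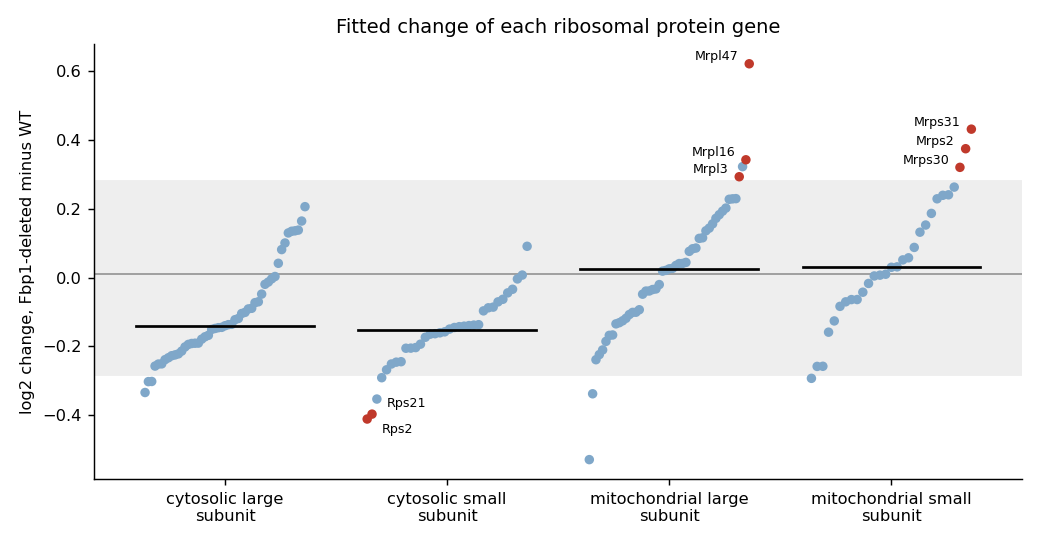
Fitted log2 change (Fbp1-deleted minus WT) of each tested member, by ribosome and subunit. Red points passed the test, the black line is the subunit's median, and the grey line and band are the median and quartiles of all genes tested; the cytosolic members sit mostly below 0 and the mitochondrial members on both sides.

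Rps21 is a small-subunit protein that bacteria lack. Its gene (ENSMUSG00000039001.12, chromosome 2, 180257377 to 180258445, plus strand) had 189, 148, 169.8, 152 and 140.5 CPM in WT and 124, 127, 119.5, 119 and 118 CPM in Fbp1-deleted liver. Every Fbp1-deleted library lay below every WT library, and WT replicate 1 was the highest. The level fell from 159.8 ± 19.5 to 121 ± 3.96 CPM (SD, n = 5 each), a log2 change of -0.40 (SE 0.10, adjusted p = 0.0122, edgeR).

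Rps2, at the entry of the mRNA channel, showed the largest change of a cytosolic member. The gene (ENSMUSG00000044533.15, chromosome 17, 24718116 to 24721929, plus strand) had 721, 729, 761, 708 and 814 CPM in WT and 498, 606, 658, 551 and 494 CPM in Fbp1-deleted liver, again with no overlap. It fell from 746 ± 42.6 to 561 ± 70.4 CPM (SD, n = 5 each), a log2 change of -0.41 (SE 0.11, adjusted p = 0.0148, edgeR). Its span holds 2 snoRNAs and the antisense gene Snhg9, which the non-directional library cannot separate from it. Of the 31-base words of its transcript, 77.2% also occur in another annotated gene, mostly the pseudogene Rps2-ps10 (71.7%), against 45.3% for Rps21.

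A group of cytosolic members lay just outside the threshold. Rpl38, known from the tail short mouse, had 133, 97.3, 100.7, 94.1 and 90.5 CPM in WT and 79.2, 90.9, 82.8, 76.3 and 80.2 CPM in Fbp1-deleted liver, a log2 change of -0.33 (SE 0.11, adjusted p = 0.05005, edgeR, just above the threshold). The groups overlapped narrowly. Leaving out WT replicate 5 or WT replicate 4, its lowest WT libraries, brought it under the threshold (adjusted p = 0.0436 and 0.0464), and leaving out WT replicate 1, the highest, gave 0.0944. Rplp2, a stalk protein, had -0.30 (adjusted p = 0.0507), Rpl36 -0.30 (0.0579), Rpl21 -0.24 (0.0746) and Rplp1 -0.25 (0.0821), all by edgeR. In the small subunit Rps20 had -0.25 (0.0854), Rps28 -0.29 (0.0877) and Rps29 -0.27 (0.0947).

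The stalk proteins did not share 1 value. Rplp0, the stalk base that is often used as a reference gene, had 351, 394, 412, 436 and 444 CPM in WT and 383, 444, 422, 418 and 376 CPM in Fbp1-deleted liver. The groups overlapped throughout, with a log2 change of 0.00 (SE 0.10, adjusted p = 0.987, edgeR). Rplp1 and Rplp2, which bind to it as pairs, had the values of -0.25 and -0.30 given above, neither of which passed the test. The difference between the 3 proteins was not tested.

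Few members had groups that stood wholly apart. Of cytosolic members, 7 of 83 lay wholly below WT and 0 wholly above, beside 6.89% and 6.57% of all genes tested. The 7 were Rps21, Rps2, Rps4x, Rps16, Rpl17, Rpl21 and Rpl26, of which Rps16, Rpl17 and Rpl26 were named after their values were seen. Rps4x, the X-linked small-subunit protein, had the narrowest groups, with 213, 212, 227, 222 and 222 CPM in WT and 194, 193, 196, 195 and 199.99 CPM in Fbp1-deleted liver (log2 change -0.16, SE 0.08, adjusted p = 0.158, edgeR).

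The 6 mitochondrial members that rose came from both subunits by name. Mrps31, a small-subunit protein with no bacterial counterpart (ENSMUSG00000031533.4, chromosome 8, 22411361 to 22429665, plus strand), had 26.0, 25.9, 24.1, 26.1 and 24.6 CPM in WT and 35.4, 32.2, 30.1, 34.0 and 39.3 CPM in Fbp1-deleted liver. The groups did not overlap. It rose from 25.4 ± 0.924 to 34.2 ± 3.51 CPM (SD, n = 5 each), a log2 change of 0.43 (SE 0.09, adjusted p = 0.00614, edgeR).

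Mrpl47, a protein of the large subunit near the exit of the peptide tunnel, had the largest rise. The gene (ENSMUSG00000037531.8, chromosome 3, 32725397 to 32737605, minus strand) had 12.8, 12.9, 9.91, 14.1 and 11.6 CPM in WT and 20.4, 18.4, 13.0, 22.5 and 20.2 CPM in Fbp1-deleted liver. Fbp1-deleted replicate 8 lay within the WT range and the other 4 lay above it. It rose from 12.3 ± 1.58 to 18.9 ± 3.61 CPM (SD, n = 5 each), a log2 change of 0.62 (SE 0.15, adjusted p = 0.0102, edgeR). Its span overlaps Actl6a and Ndufb5 on the opposite strand, and 12.7% of its 31-base words also occur in Actl6a. Actl6a was higher as well (log2 change 0.34, adjusted p = 0.0337, edgeR, lost in 8 of 19 settings) and Ndufb5 was at 0.01 (adjusted p = 0.976), and without strand the part of these reads in the value of Mrpl47 was not tested.

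Mrpl16, a large-subunit protein with a bacterial counterpart (ENSMUSG00000024683.5, chromosome 19, 11770391 to 11774960, plus strand), had 22.4, 21.0, 19.7, 20.5 and 20.7 CPM in WT and 27.9, 27.8, 24.8, 27.7 and 24.1 CPM in Fbp1-deleted liver. The groups did not overlap. It rose from 20.9 ± 0.994 to 26.5 ± 1.84 CPM (SD, n = 5 each), a log2 change of 0.34 (SE 0.09, adjusted p = 0.0155, edgeR). Mrps2, whose bacterial counterpart binds late in small-subunit assembly (ENSMUSG00000035772.11, chromosome 2, 28468066 to 28471178, plus strand), had 29.0, 32.2, 28.9, 29.8 and 29.6 CPM in WT and 42.4, 41.8, 30.98, 38.4 and 40.1 CPM in Fbp1-deleted liver. Fbp1-deleted replicate 8 lay below the highest WT library, replicate 2. The log2 change came to 0.37 (SE 0.10, adjusted p = 0.0184, edgeR), and without Fbp1-deleted replicate 6 it no longer passed the test (adjusted p = 0.0546).

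Mrpl3, which touches the catalytic region of the large subunit (ENSMUSG00000032563.16, chromosome 9, 105053239 to 105079888, plus strand), had 19.3, 20.3, 20.7, 18.7 and 20.1 CPM in WT and 24.0, 23.6, 23.1, 25.4 and 25.3 CPM in Fbp1-deleted liver. The groups did not overlap. The log2 change was 0.29 (SE 0.08, adjusted p = 0.0249, edgeR). Mrps30 (ENSMUSG00000021731.10, chromosome 13, 118378381 to 118387252, minus strand) carries a small-subunit name, but its protein sits in the large subunit. It had 21.5, 20.6, 16.2, 19.6 and 16.6 CPM in WT and 24.3, 22.9, 21.0, 23.8 and 26.1 CPM in Fbp1-deleted liver, a change of 0.32 (SE 0.11, adjusted p = 0.0494, edgeR). Only Fbp1-deleted replicate 8 fell within the WT range. Mrps30 shares 17.4% of its 31-base words with the overlapping gene B430218F22Rik, which was at -0.07 (adjusted p = 0.937).

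**Figure D3:**
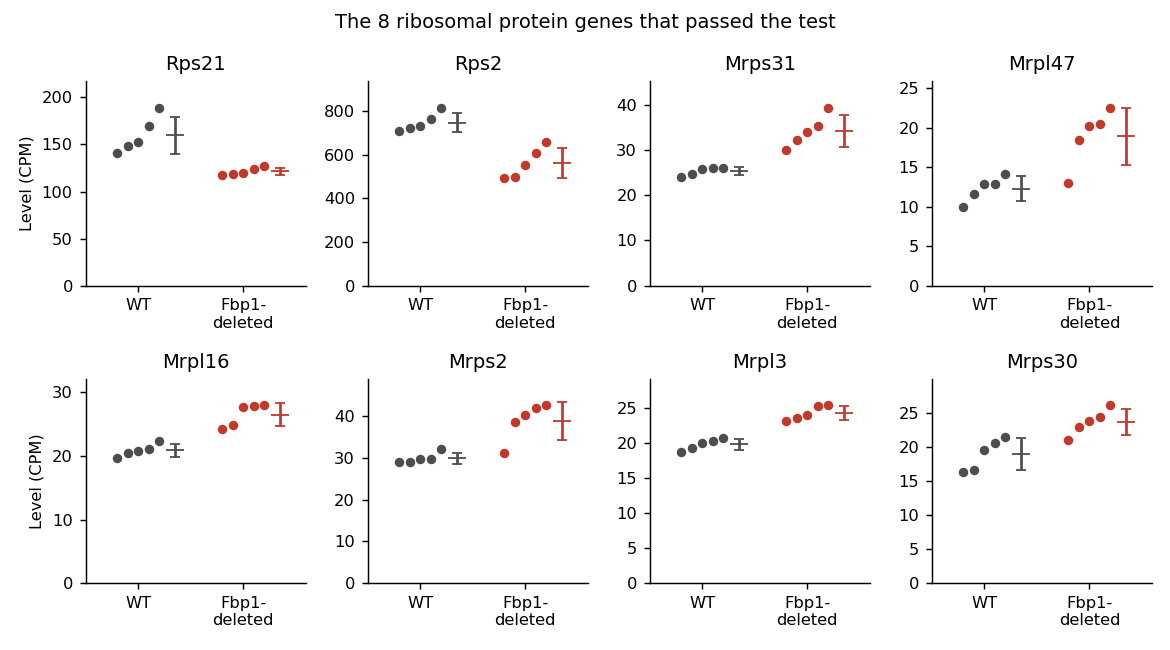
Level (CPM, each panel from 0) of the 8 members that passed the test in each library, with the mean ± SD of each group as a bar. Rps21 and Rps2 lie lower in all 5 Fbp1-deleted libraries, and the 6 mitochondrial members lie higher, with Fbp1-deleted replicate 8 within or next to the WT range for Mrpl47, Mrps2 and Mrps30.

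The calls differed in how firmly they stood. Over 19 alternative settings, Mrpl47 and Mrps31 passed in all. Rps21 and Rps2 passed in all but the fit with the length trend removed (described below), where adjusted p was 0.14 for Rps21 and 0.0534 for Rps2. Mrps2 lost its call in 2 settings and Mrpl16 in 3 (upper quartile factors, library totals and no filter, adjusted p up to 0.0806). Mrpl3 lost it in 8, of which 5 left out a library (WT replicates 2 and 5 and Fbp1-deleted replicates 6, 9 and 10, adjusted p from 0.0519 to 0.0645). Mrps30 lost it in 14, among them the fits without any 1 library other than WT replicate 1 and Fbp1-deleted replicate 8 (adjusted p between 0.0618 and 0.128). Of mitochondrial members, 3 of 78 lay wholly above WT (Mrpl16, Mrpl3 and Mrps31) and 0 wholly below, beside 6.57% and 6.89% of all genes.

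The mitochondrial members near the threshold pointed both ways. Mrpl19 had a log2 change of 0.32 (adjusted p = 0.0513) and Mrps18b of 0.26 (0.0869). Mrpl14, the mitochondrial member with the highest level per kb, had -0.34 (0.0553), Mrps24 -0.26 (0.0800) and Mrps21 -0.26 (0.0982), all by edgeR. The lowest fitted value, -0.53, was that of Mrpl23, named after its value was seen, at 4.88 ± 0.808 CPM in WT and 3.38 ± 1.27 CPM in Fbp1-deleted liver (SD, n = 5 each, adjusted p = 0.140). Its Fbp1-deleted libraries had 2.16, 2.23, 5.24, 3.70 and 3.58 CPM, and without replicate 8, the highest of these, it passed the test downwards (log2 change -0.75, adjusted p = 0.0261).

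Over protein-coding genes, the median change differed between classes of transcript length. The median length of the annotated principal transcript was 878 bases for cytosolic members, 1302 for mitochondrial members and 2858 for all genes tested. Over protein-coding genes of the whole table the median log2 change went from -0.13 under 1000 bases (762 genes) through -0.06 from 1000 to 2000 bases and 0.06 from 3000 to 5000 bases to 0.12 at 5000 bases or more. Cytosolic members under 1000 bases had a median of -0.15 (53 members) and those from 1000 to 2000 bases also -0.15 (24). Mitochondrial members had -0.08 (25) and 0.08 (28) in the same classes. The 6 mitochondrial members that rose have transcripts between 1162 and 3972 bases. Of members below 0 near the threshold, Mrpl14 has 645 bases, Mrps21 488 and Mrps24 995. Mrps15 (log2 change -0.29, adjusted p = 0.0900, edgeR) has 937. Mrpl24 (-0.24, adjusted p = 0.0958, edgeR) has 1339, more than Mrpl16, which rose. Mrps15 and Mrpl24 were named after their values were seen.

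**Figure D4:**
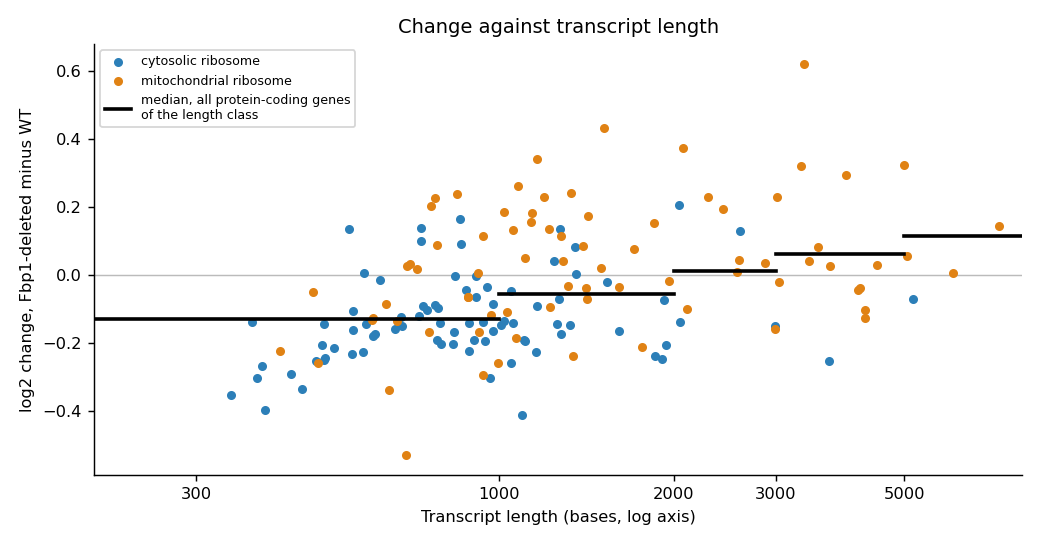
Fitted log2 change (Fbp1-deleted minus WT) of each tested member against the length of its principal transcript in bases (log axis), with cytosolic and mitochondrial members in different colours. The black steps are the median change of all tested protein-coding genes in each length class, from -0.13 under 1000 bases to 0.12 at 5000 bases or more.

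Across genes, Spearman's rho of change with length was 0.17 over 13227 protein-coding genes, 0.28 over the 83 cytosolic and 0.33 over the 78 mitochondrial members. These are descriptions, since all genes share the same 10 libraries and their depth and are not independent. Libraries of 1 group differed in this measure too. The 684 tested protein-coding genes under 1000 bases that are no members stood at 0.23, 0.12, -0.03, -0.05 and 0.04 from their mean over all libraries (median, log2) in WT replicates 1 to 5, and at -0.09, 0.10, -0.04, -0.12 and -0.15 in Fbp1-deleted replicates 6 to 10. The cytosolic members stood at 0.20, -0.00, 0.08, 0.03 and 0.05 in the WT libraries and at -0.13, 0.06, -0.10, -0.08 and -0.11 in the Fbp1-deleted libraries. Both measures were highest in WT replicate 1, they had opposite signs in WT replicates 3 and 4, and in WT replicate 2 the short genes were raised while the cytosolic members stood at their mean.

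When the length trend was removed from each library before the fit, 0 cytosolic members passed in either direction and their median was -0.01. The mitochondrial members then had 13 higher, 0 lower and a median of 0.06. The difference between the medians was 0.08 in place of 0.17. In that fit edgeR called 1776 genes higher and 1493 lower. The part of length in the values of single members was not tested beyond this fit.

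Some marker lists of other liver cells differed between the groups. Of 10 Kupffer cell markers tested, 0 passed upwards and 7 downwards (median log2 change -0.48), and their sum was 348 to 476 CPM in WT and 247 to 376 in Fbp1-deleted liver. Of 12 leukocyte markers, 10 were tested, with 0 higher and 3 lower (median -0.91), and the sum was 41.4 to 49.7 CPM in WT and 21.6 to 29.2 in Fbp1-deleted liver. The markers tested in these lists were above 0 in all libraries, and Ms4a1, which was not tested, was at 0 in at least 1. Hepatocyte markers, 2 of 10 higher and 0 lower, summed to 65504 to 109519 CPM in WT and 97486 to 110049 in Fbp1-deleted liver. Erythroid markers (0 of 5 called) summed to 192 to 347 and 130 to 352 CPM, and proliferation markers (0 of 5 called) to 34.1 to 38.6 and 33.7 to 48.5 CPM. Of 8 endothelial markers, 1 was higher and 0 lower (median -0.26), and they summed to 269 to 333 CPM in WT and 192 to 304 in Fbp1-deleted liver. Of 8 stellate cell markers, 1 was higher and 0 lower (median 0.13), with sums of 179.5 to 267 and 237 to 304 CPM. Cholangiocyte markers (0 of 5 tested called, median -0.04) summed to 16.5 to 29.1 and 12.9 to 22.2 CPM. The part of these cells in the ribosomal protein values was not tested.

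The Fbp1 transcript checked the labels, at 909.6 ± 119 CPM in WT and 9.39 ± 2.38 CPM in Fbp1-deleted liver (SD, n = 5 each). Libraries held between 17778395 and 23894812 counts, with 4.24% to 6.47% of counts in transcripts of mitochondrial DNA.

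Cytosolic ribosomal protein genes have copies that share their sequence, which bears on how counts are divided. Of 86 cytosolic members, 49 share at least 50% of their 31-base words with another annotated gene (median 54.3%), against 6 of 78 mitochondrial members (median 7.004%). Annotated pseudogenes of cytosolic ribosomal proteins had 290 entries in the table, of which 17 passed the filter. They summed to 667 ± 56.7 CPM in WT and 640.1 ± 115 CPM in Fbp1-deleted liver (SD, n = 5 each), a small part of the sum over members. edgeR called 0 of the 17 in either direction, and 0 had an unadjusted p under 0.05.

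Rps27 and its copy Rps27rt, an intronless retrogene that is counted as protein-coding, were looked at for this. They share 311 words, 98.7% of those of Rps27 and 90.4% of those of Rps27rt. Rps27 had 78.0, 44.7, 92.2, 49.9 and 139 CPM in WT and 31.6, 116, 64.9, 64.6 and 39.6 CPM in Fbp1-deleted liver. Rps27rt had 119, 121, 109, 127 and 21.0 CPM in WT and 115, 61.4, 73.4, 89.0 and 113 CPM in Fbp1-deleted liver. The library highest in 1 of them, WT replicate 5, was the lowest in the other. Rpl29, named after its values were seen, varied more (log2 change 0.14, SE 0.81), and shares 78.7% of its words with other annotated genes. It had 5.20 CPM in WT replicate 3 and 67.3 to 74.0 in the other WT libraries. In Fbp1-deleted liver it had 5.01 to 124.5 CPM.

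The sum of the pair varied far less than its parts. Its coefficient of variation in WT was 10.02%, against 47.2% for Rps27 and 44.6% for Rps27rt. The sum was 180.2 ± 18.1 CPM in WT and 154 ± 14.5 CPM in Fbp1-deleted liver (SD, n = 5 each). Neither gene alone passed the test (Rps27 -0.35, SE 0.41, adjusted p = 0.590, and Rps27rt -0.14, SE 0.42, adjusted p = 0.847, edgeR), with standard errors far above the median of 0.10 for cytosolic members.

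**Figure D5:**
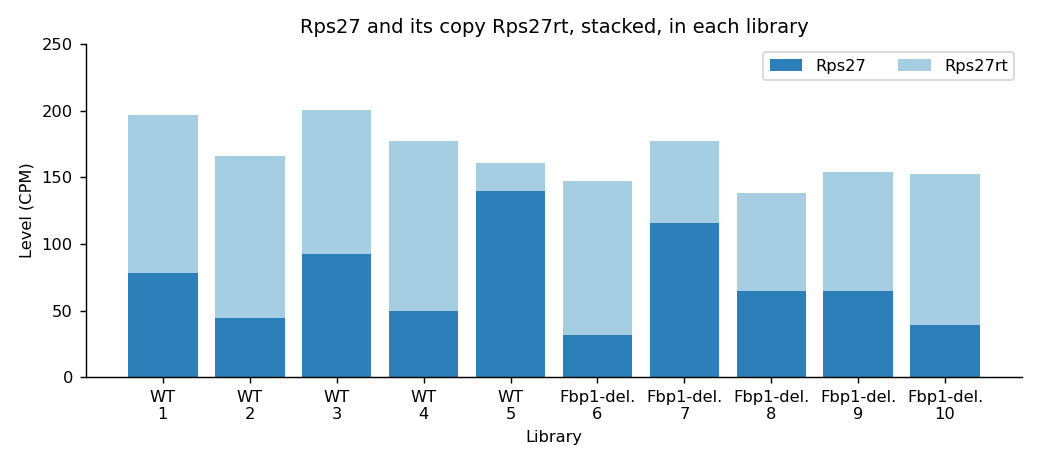
Stacked level (CPM) of Rps27 and its near-identical copy Rps27rt in each of the 10 libraries. The split between the 2 genes differs from library to library, most in WT replicate 5, while the height of the stack stays between 138 and 201 CPM.

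The other paralogs share few or none of the words with their partners. Rpl36a, Rpl22l1 and Rpl7 share 88.3%, 72.4% and 61.5% of their words with other annotated genes, so the shares of their pairs below carry that uncertainty. Rpl36al, a copy of Rpl36a that encodes nearly the same protein, made up 63.3% to 68.8% of the pair in WT and 68.6% to 74.1% in Fbp1-deleted liver, so the groups overlapped narrowly. Rpl36al itself had a log2 change of 0.14 (adjusted p = 0.350) and Rpl36a of -0.25 (0.0944), both by edgeR, and the difference of the shares was not tested. Rpl22l1, the paralog that can stand in for Rpl22, made up 17.1% ± 2.43 of its pair in WT and 20.03% ± 2.67 in Fbp1-deleted liver (SD, n = 5 each). Rpl7l1 made up 15.8% ± 1.72 of the pair with Rpl7 in WT and 17.95% ± 0.977 in Fbp1-deleted liver.

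The remaining paralogs, their partners and the odd members gave no call. Rps27l, a p53-responsive paralog, had -0.14 (adjusted p = 0.458), Rpl3 0.08 (0.579), Rpl7 -0.09 (0.481), Rpl10 0.16 (0.386), Rpl22 -0.14 (0.290) and Rpl39 -0.17 (0.210). The tissue-restricted Rpl3l (0.279 CPM in WT and 0.221 in Fbp1-deleted liver), Rpl10l and Rpl39l did not pass the filter on low counts. Rps19bp1, a regulator that binds Rps19, and Mrps36, since reassigned to the 2-oxoglutarate dehydrogenase complex, carry the names but are no core ribosomal proteins. They had log2 changes of -0.00 (adjusted p = 0.987) and 0.03 (0.892).

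Ribosomal protein genes also host small nucleolar RNAs, which guide the modification of rRNA. An annotated snoRNA lies in the span of 30 of the 86 cytosolic members and 1 of 78 mitochondrial members, beside 2.66% of all genes tested. The 30 cytosolic hosts had a median log2 change of -0.15 and those without a snoRNA of -0.14, 80.0% and 88.7% of them below 0. Of cytosolic ribosomal proteins outside the naming pattern, Fau had -0.28 (adjusted p = 0.0903) and the scaffold Rack1 -0.00 (0.986), both by edgeR, and neither passed the test.

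The lists of genes around the cytosolic ribosome had medians above 0, also with upper quartile factors (0.16, 0.05 and 0.09), library totals (0.14, 0.04 and 0.07) and the length trend removed (0.23, 0.18 and 0.08), in the order given here. The lists of translation factors and of mTORC1 hold inhibitors beside activators, so their medians give no direction of activity. Of 71 genes of RNA polymerase I and rRNA processing that were tested, 11 (15.5%, beside 10.6% of all genes tested) were higher and 2 lower, with a median log2 change of 0.23. Nmd3, the export adaptor of the large subunit, rose from 20.2 ± 1.68 to 34.1 ± 7.42 CPM (0.75, adjusted p = 0.00252), Utp14a, of the small-subunit processome, from 14.0 ± 2.20 to 21.0 ± 1.48 CPM (0.58, 0.00412), and Ltv1, an assembly factor of the small subunit, from 11.4 ± 0.527 to 17.5 ± 3.69 CPM (0.61, 0.00916). Each level is a mean ± SD with n = 5, and each test is edgeR's. The 2 that fell were Ubtf, the factor that opens rRNA genes (-0.43, 0.0140), and Imp3, of the small-subunit processome (-0.35, 0.0146), both named as the whole of that count. Imp3 lost its call with the length trend removed (adjusted p = 0.0799). The median length in this list was 2702 bases, against 878 for cytosolic members.

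Of 46 cytosolic initiation and elongation factors, 7 (15.2%) were higher and 1 lower (median 0.13). Eif4e, which binds the mRNA cap, rose by 0.44 (adjusted p = 0.00594), Eif2s1, a subunit of the factor that brings the first tRNA, by 0.44 (0.00921) and Eif2b3, of its exchange factor, by 0.65 (0.0111). The 1 that fell was Eef2k, the kinase that inhibits elongation (-0.78, 0.0251), and its call was lost in 5 of 19 settings, each with 1 library left out (highest adjusted p = 0.0691). Of 26 genes of mTORC1 and the control of ribosomal protein mRNA, 5 (19.2%) were higher and 1 lower (median 0.16). Mtor, the kinase itself, rose by 1.05 (0.000242) and Ddit4, an inhibitor of mTORC1 signalling, by 3.87 (0.000544), while Eif4ebp2, which blocks Eif4e, fell by 0.59 (0.00460). Larp1, which binds the pyrimidine run of ribosomal protein mRNAs, had -0.16 (0.321) and was named after its value was seen. These are log2 changes and adjusted p from edgeR.

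The lists around the mitochondrial ribosome are likewise read beside the 10.6% of all genes that rose. Of 34 genes of mitochondrial ribosome assembly tested, 2 (5.88%) were higher and 1 lower (median 0.04, which became -0.04 with library totals). Mettl17, a factor of small-subunit assembly, fell from 19.8 ± 3.12 to 11.98 ± 2.01 CPM (-0.73, adjusted p = 0.00349), Trub2, a pseudouridine synthase that acts in mitochondria, rose from 11.2 ± 1.496 to 17.6 ± 2.81 CPM (0.65, 0.00542), and Gtpbp6, a GTPase of the large subunit, had 0.41 (0.0482) with the call lost in 13 of 19 settings, 8 of them with 1 library left out (adjusted p up to 0.107). Of 16 mitochondrial translation factors, 2 (12.5%) were higher and 0 lower. Gfm1, the elongation factor that moves the ribosome along, rose by 0.54 (0.00238), and Lrpprc, which stabilises mitochondrial mRNAs, by 0.44 (0.0205). The call of Lrpprc was lost when any 1 of 4 libraries was left out (WT replicates 2 and 5, Fbp1-deleted replicates 6 and 9, adjusted p up to 0.0585). Of 20 mitochondrial aminoacyl-tRNA synthetases and partners, 1 (5%) was higher, Qrsl1 (1.05, 0.00168), a subunit of the enzyme that makes glutaminyl-tRNA in mitochondria.

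The regulators and the products of this ribosome are the last lists. Of 17 mitochondrial biogenesis factors, 4 (23.5%) were higher and 2 lower. Ppargc1a, a coactivator of mitochondrial genes, had 10.4, 10.1, 9.91, 10.3 and 10.2 CPM in WT and 69.1, 51.7, 25.3, 87.5 and 90.9 CPM in Fbp1-deleted liver, a log2 change of 2.67 (adjusted p = 0.000266). The groups did not overlap, and replicate 8 was the lowest of the Fbp1-deleted libraries. Esrra, a nuclear receptor that acts with it, rose by 0.54 (0.0201), and Twnk, the helicase of mitochondrial DNA, fell by 0.39 (0.0165). Without Fbp1-deleted replicate 6 neither passed (0.0600 and 0.0541), nor did Esrra without replicate 7 (0.0525). Of 13 mRNAs of mitochondrial DNA, 3 (23.1%) were higher and 0 lower, all for subunits of complex I: mt-Nd5 (0.73, 0.00165), mt-Nd1 (0.60, 0.00700) and mt-Nd6 (0.54, 0.0129). The mitochondrial rRNAs mt-Rnr1 (0.36, 0.305) and mt-Rnr2 (0.17, 0.559) did not pass, and the labels describe mRNA libraries. These too are log2 changes and adjusted p from edgeR.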

How the data were processed

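RNA of 10 livers was sequenced, 1 library each. Per the labels' protocols, total RNA was isolated with a column kit and made into non-directional mRNA libraries, so sense and antisense reads cannot be told apart. The deposited table holds the authors' estimated counts per gene. Per the submitters' processing notes the tools were CASAVA and Salmon with GRCm38. Salmon's settings, and any adjustment of the counts for transcript length, are not stated there. The series' design text also describes STAR, featureCounts and DESeq2, a route the table does not name. All values were whole.

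Identifiers were matched to GENCODE M21, with 37 genes (0.0012% of counts) unmatched. Genes were tested in R 4.3.3 with edgeR 4.0.16 (filterByExpr, TMM scaling, robust quasi-likelihood F test, group as the only term), and p-values were Benjamini-Hochberg adjusted over 15392 genes with a threshold of 0.05. The SE of a change was taken from the change and its F statistic. Levels are CPM over TMM-scaled totals, and levels per kb use the principal transcript. The fit was tested on simulated data. Promoters are RefSeq's (GRCm38.p6), and shared 31-base words were counted over the GENCODE transcripts on either strand.

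Members named per subunit were the 5 with the smallest adjusted p, the 2 with the highest level per kb and the largest change, with paralogs, their partners and the 3 called genes with the smallest adjusted p of each pathway list. A member of 1 list is not reported here. Members and lists were chosen with earlier results of these data known. Alternatives were RLE, upper quartile and total scaling, no filter, a filter of 1 CPM in 5 libraries, no robust shrinkage, DESeq2 1.42.0, limma-voom 3.58.1, each library left out, and, added after the data were seen, removal of a per-library loess trend (span 0.5) on transcript length. Replicate numbers differ between the groups, so nothing was paired. Within each group no library looked like a copy of another, and pairs across the groups were not compared.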

Additional observations from a re-analysis of the deposited data

Results flagged for a closer look

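In 9 of the 106 groups of 5 libraries looked at, over the named genes, 1 library stood far from the other 4 (a gap of more than 0.71 of the group's range). About 1 in 20 groups does so by chance. Rpl29, named after its values were seen, was not among the genes looked at here. In WT replicate 1, Rpl38 had 133 CPM, where the other WT libraries had 90.5 to 100.7, and Rps29 had 217 CPM, where the others had 164 to 175. In that library Rpl26 had 191 CPM (others 152 to 159), Rpl17 had 205 CPM (others 185 to 190.3) and Rpl5 had 21.2 CPM (others 14.8 to 16.3), all 3 looked at after their values were seen. In the same library, short transcripts that are no members stood highest as well (0.23 above their mean, log2). In WT replicate 2, Mrps2 had 32.2 CPM, where the others had 28.9 to 29.8. In WT replicate 4, Mrps18b had 44.7 CPM, where the others had 34.0 to 36.8, and its change passed the test without that library (adjusted p = 0.0295, edgeR). In WT replicate 5, Rps27rt had 21.0 CPM, where the others had 109 to 127, while Rps27 was at its highest there. In Fbp1-deleted replicate 7, Rps19bp1 had 22.01 CPM, where the others had 14.2 to 16.3.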

How the results depend on the processing

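The count of cytosolic members that fell was 2 and became 10 with upper quartile factors, 16 with library totals, 5 with the stricter filter, 9 with DESeq2, 0 with the length trend removed, 0 among members with no overlap of another gene, and 2 to 6 with 1 library left out (4 without WT replicate 5, 6 without Fbp1-deleted replicate 7). The count of mitochondrial members that rose was 6 and became 3, 2, 3 (no filter), 13 (length trend removed), 3 (no overlap) and 3 to 9 with 1 library left out (3 without Fbp1-deleted replicate 6, 9 without WT replicate 4 or Fbp1-deleted replicate 8), where the first 2 values are again upper quartile factors and library totals. The count of mitochondrial members that fell was 0 and became 4 with upper quartile factors, 5 with library totals, 1 with the stricter filter, 1 with DESeq2 and 0 to 2 with 1 library left out (2 without Fbp1-deleted replicate 7). Under the same 2 scalings the calls over all genes were 1266 higher and 1878 lower, and 1190 higher and 1965 lower. With DESeq2 they were 1967 higher and 1817 lower, and with the stricter filter 1567 higher and 1583 lower. Calls over all genes also moved with the libraries and the filter. Higher were 1086 of 15745 without Fbp1-deleted replicate 6, 1761 of 15760 without WT replicate 4 and 2060 of 15736 without Fbp1-deleted replicate 8. With no filter, 1350 of 33695 were higher. Lower were 1201 of 15743 without WT replicate 5 and 1233 of 15768 without Fbp1-deleted replicate 7. The cytosolic median of -0.15 became -0.23 with library totals and -0.015 with the length trend removed, and the difference of the medians became 0.079 there. Without the 8 genes above 1% of a library and those of mitochondrial DNA, the cytosolic share became 2.14% (WT) and 1.84% (Fbp1-deleted), and the mitochondrial share 0.306% and 0.291%. The fits without overlapping members, with a filter or with 1 library less use fewer genes or samples, and elsewhere the cause was not tested. No cytosolic member was called higher under any alternative run. No paired analysis was possible because the groups share no replicate numbers. Changes of about 0.1 on the log2 scale are within the standard error of a single member.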
